A study of Homo sapiens with 7 samples.

Results

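A group of 10 genes for receptor and ABL family kinases that dasatinib is known to inhibit beside BCR::ABL1 was followed in 7 K562 lines. The genes are ABL2, KIT, PDGFRA, PDGFRB, CSF1R, DDR1, DDR2, EPHA2, EPHB2 and EPHB4, and each was matched to the read counts by its gene symbol and NCBI gene ID. All 10 were found among 25702 genes. K562 cells come from an established line of chronic myeloid leukemia with the BCR::ABL1 fusion gene, and their dasatinib resistant (DasR) lines were selected by growth in rising concentrations of the inhibitor. The control lines were drug naive K562 cells and K562 cells kept in the vehicle DMSO. The early stage DasR lines were taken at 10, 15 and 25 nM dasatinib and the late stage DasR lines at 50 and 200 nM. One library was sequenced per line, so lines at different doses served as the replicates of a group. The p-values measure the spread between these lines. The paper describes the DasR samples as taken in sequence while the dose of a resistant line was raised. They are thus not independent selections, although the fits treat them as independent. The study set the early and late stage groups by clustering the same libraries, and for that reason all 5 resistant lines were also compared with the 2 controls. The libraries held 21007761 counts in the drug naive and 24037893 in the DMSO line, and between 20059656 and 27844799 in the DasR lines.

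Dasatinib is an ATP-competitive inhibitor that binds the active conformation of ABL and SRC family kinases and of a number of receptor tyrosine kinases. KIT, PDGFRA, PDGFRB and CSF1R are receptors for growth factors of myeloid, mast and mesenchymal cells, DDR1 and DDR2 are receptors for collagen, and EPHA2, EPHB2 and EPHB4 bind ephrins on neighbouring cells. ABL2 is the cytoplasmic paralog of ABL1 and carries actin-binding sequences in its tail. In ABL1, a threonine at residue 315, called the gatekeeper, lies at the back of the ATP pocket and forms a hydrogen bond with dasatinib.

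The coding sequence around this residue is shown for the 5 members with the highest levels, and for FGFR3, a receptor outside the group. The residue contacts dasatinib in ABL1, so a feature shared by members there is not independent of their selection as dasatinib targets. Capitals mark the gatekeeper codon, 7 codons stand on each side of it, and the bases are the coding strand of GENCODE transcripts on GRCh37. The windows of ABL2 (chr1:179087841-179087885, minus strand), DDR1 (chr6:30865238-30865282, plus strand), EPHB4 (chr7:100410387-100410431, minus strand) and DDR2 (chr1:162745524-162745568, plus strand) each lie in a single coding exon. The windows of KIT and FGFR3 run across an exon boundary, and their gatekeeper codons are at chr4:55595518-55595520 and chr4:1807494-1807496, both on the plus strand.
ABL2: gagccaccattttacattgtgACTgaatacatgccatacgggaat
DDR1: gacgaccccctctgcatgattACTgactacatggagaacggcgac
EPHB4: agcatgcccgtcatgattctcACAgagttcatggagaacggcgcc
KIT: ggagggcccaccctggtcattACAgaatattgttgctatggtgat
DDR2: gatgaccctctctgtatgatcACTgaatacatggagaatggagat
FGFR3: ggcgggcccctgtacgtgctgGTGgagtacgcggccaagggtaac

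The aligned codon was a threonine codon in all 10 members, at residue 361 of ABL2, 701 of DDR1, 693 of EPHB4, 670 of KIT and 654 of DDR2. It was one in 13 of 47 other receptor tyrosine kinases that could be aligned (27.7%). FGFR3 has a valine codon there, at residue 555. Over the kinase domain, ABL2 was 93.3% identical to ABL1. Within the group, EPHB2 and EPHB4 were 85.2% identical, DDR1 and DDR2 70.8%, PDGFRA and PDGFRB 66.2%, and KIT and CSF1R 65.2%. Despite the likeness of the proteins, the coding sequences of ABL1 and ABL2 share no stretch of 75 bases, the read length, and their longest shared run is 23 bases.

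A set of 3 of the 10 genes made up nearly all of the group's RNA. ABL2, DDR1 and EPHB4 together held between 95.2% and 97.9% of the summed CPM (counts divided by the total of the library in units of 1e6) of the 10 members in each line. Levels of different genes were compared as RPKM, which divides the CPM by the merged exon length in kilobases. EPHB4 had the highest median over the 7 lines, 15.5 RPKM, and ranged from 12.1 to 19.9 RPKM. DDR1 followed with a median of 9.22 RPKM (6.24 to 11.8), so that its highest line was below the lowest line of EPHB4. ABL2 had a median of 6.95 RPKM (5.09 to 7.85), and its range overlapped that of DDR1. The order of the 3 medians was the same with the gene lengths deposited by the authors, but the overlaps were not. With those lengths DDR1 reached 27.3 RPKM, above the lowest line of EPHB4 (17.9 RPKM), and its lowest line (14.4 RPKM) was above the highest line of ABL2 (10.3 RPKM).
The other 7 members were lower. KIT had a median of 0.560 RPKM (0.195 to 0.708) and DDR2 a median of 0.262 RPKM (0.169 to 0.349), with overlapping ranges. EPHA2 had a median of 0.0812 RPKM, PDGFRB of 0.0559 RPKM and CSF1R of 0.0323 RPKM, and the ranges of all 3 overlapped. EPHB2 and PDGFRA had a median of 0 RPKM. The receptors of this group with the most RNA in these lines were thus a collagen receptor and an ephrin receptor, and among the growth factor receptors KIT was the highest.

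**Figure D1:**
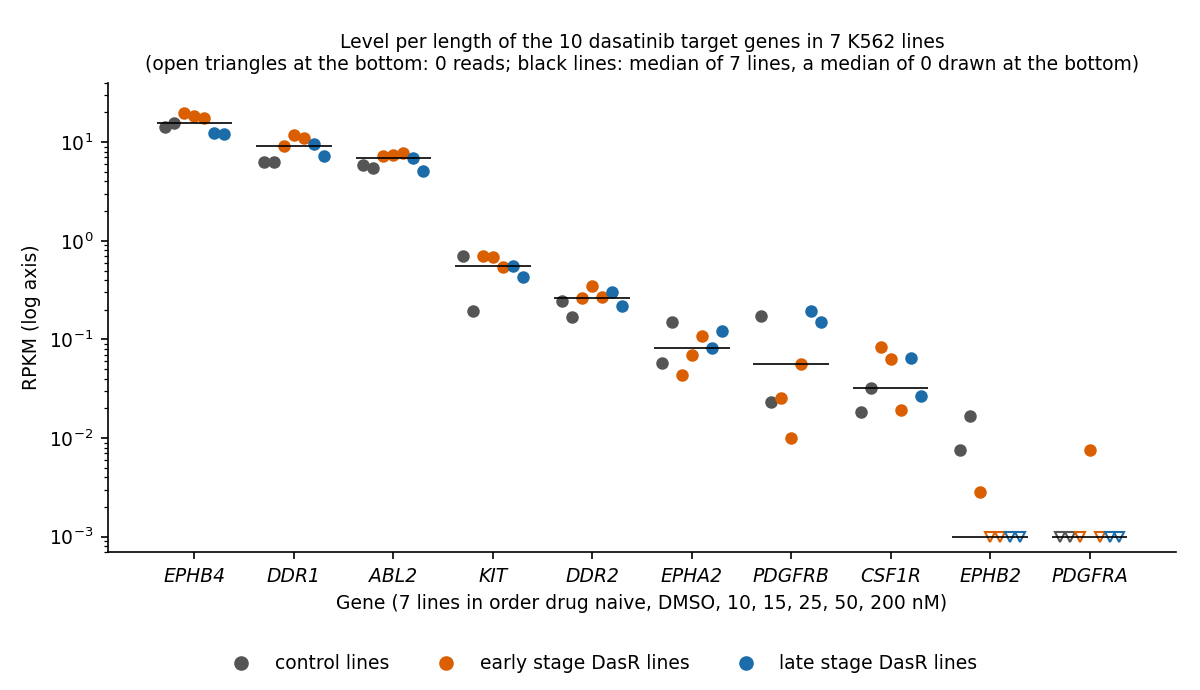
Level per exon length (RPKM, log axis) of the 10 genes, with 1 point for each of the 7 lines, coloured by group, and a black line at the median; open triangles mark lines with 0 reads. EPHB4, DDR1 and ABL2 lie between 5.09 and 19.9 RPKM, and the other 7 genes lie at or under 0.708 RPKM.

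The labelled cell type was checked with marker genes. All 10 erythroid markers expected of K562 cells were above 1 CPM in at least 1 line, and their summed CPM was 3414 in the drug naive line, 2951 in the DMSO line, 8482, 9811 and 7095 in the 10, 15 and 25 nM lines, and 4793 and 3665 in the 50 and 200 nM lines. HBG2 was the most abundant of them, and its reads could be shared with its near-identical copy HBG1. Of the markers of other cells that carry member receptors, CPA3 of mast cells and CDH5 of endothelial cells had 0 reads in every line, and 5 of 8 fibroblast markers were at or under 1 CPM in every line, but other lists held more RNA.
The mast cell markers summed to between 1.44 and 6.47 CPM (highest gene MS4A2), the fibroblast markers to between 5.09 and 19.6 CPM (highest gene COL1A1) and the endothelial markers to between 5.17 and 39.95 CPM (highest gene VWF). Of the monocyte and macrophage markers, 3 of 8 were at or under 1 CPM in every line, and their sum of 49.3 to 175 CPM was led by LYZ. The 6 epithelial markers, of a tissue in which DDR1, EPHB4 and EPHA2 are common, summed to 757 and 652 CPM in the drug naive and DMSO lines, to 825, 852 and 864 CPM in the early stage lines and to 1053 and 866 CPM in the late stage lines. KRT8 was the most abundant of them, with a mean of 425 CPM, and 2 of the 6 were at or under 1 CPM in every line. Like DDR1, this sum was higher in every DasR line than in both controls, as were KRT8 and KRT18. KRT19 was lower in every DasR line (48.9 to 65.2 CPM, against 125 and 78.8 CPM in the controls), and EPCAM was at 50.9 to 70.1 CPM in the DasR lines against 61.7 and 75.3 CPM. The part of these markers in the results was not tested.

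DDR1, which signals from fibrillar and basement membrane collagens, stood highest above the controls. It was at 56.9 CPM in the drug naive and 57.3 CPM in the DMSO line. It reached 84.1 CPM at 10 nM, 108 CPM at 15 nM and 99.7 CPM at 25 nM, and was at 88.2 CPM at 50 nM and 66.8 CPM at 200 nM. Every DasR line was therefore above both controls, and the 200 nM line was the closest to them.
EPHB4, a receptor for ephrin-B2, differed between stages. It was at 91.3 CPM in the drug naive and 100.1 CPM in the DMSO line, then at 128 CPM, 118 CPM and 113 CPM in the 10, 15 and 25 nM lines, and at 80.1 CPM and 77.8 CPM in the 50 and 200 nM lines. The early stage lines were all above the controls and the late stage lines were both below them.
ABL2 was at 97.1 CPM in the drug naive and 91.3 CPM in the DMSO line, at 120 CPM, 124 CPM and 131 CPM in the 10, 15 and 25 nM lines, and at 116 CPM and 84.9 CPM in the 50 and 200 nM lines. Here the late stage lines disagreed, with the 50 nM line above and the 200 nM line below both controls.

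**Figure D2:**
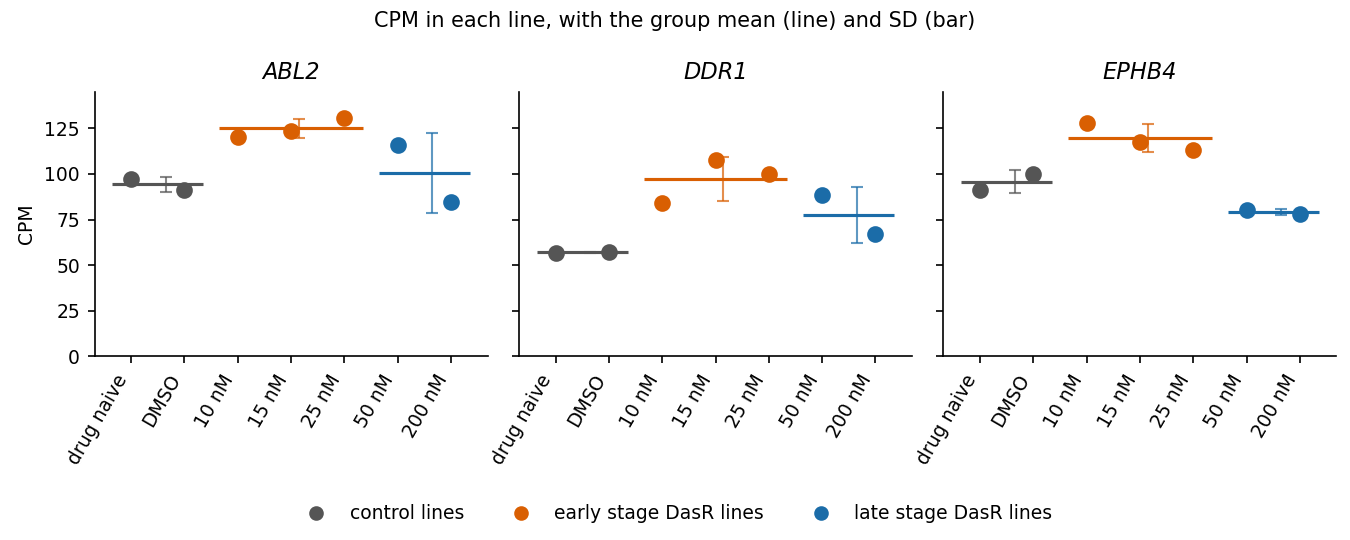
CPM of ABL2, DDR1 and EPHB4 in each of the 7 lines, as points coloured by group, with the group mean as a horizontal line and the SD as a bar (2 control, 3 early stage and 2 late stage lines). In the early stage lines all 3 genes lie above both controls; in the late stage lines EPHB4 lies at 80.1 and 77.8 CPM, below the controls.

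The first comparison asked which of the kinases differed between early stage DasR lines and controls. DDR1 averaged 57.1 ± 0.250 CPM (SD, n = 2) in control and 97.2 ± 12.0 CPM (SD, n = 3) in early stage lines, 1.68-fold higher in the fit. EPHB4 averaged 95.7 ± 6.22 and 120 ± 7.66 CPM in the same groups, 1.24-fold higher. Both rose at an FDR of 0.05, from the quasi-likelihood test of edgeR adjusted by Benjamini-Hochberg over 10452 genes. DDR1 had a log2 fold change of 0.75 (SE 0.15, FDR 0.00698) and EPHB4 one of 0.31 (SE 0.088, FDR 0.0256). ABL2 went from 94.2 ± 4.10 to 125 ± 5.40 CPM, with a log2 fold change of 0.39 (SE 0.14) that missed this threshold (FDR 0.0559), although the groups did not overlap.
Of the 10 members 3 were high enough to be tested, and none passed the study's FDR of 0.005, which 18% of all tested genes did. At an FDR of 0.05, DDR1 and EPHB4 passed, beside 46.5% of all genes. A larger change in either direction than that of DDR1 was found in 20.8% of genes, and larger ones than those of ABL2 and EPHB4 in 45.5% and 54.9%. The rise of DDR1 stayed under 0.05 in all 14 alternatives, and DESeq2 gave the lowest FDR (3.10e-05). That of EPHB4 was lost without the drug naive line (FDR 0.150), the DMSO line (0.0743) or the 10 nM line (0.0686), and ABL2 passed 0.05 in 6 of 14 alternatives, among them DESeq2 (0.0249) and the fits without either late stage line (0.0119 and 0.0118). RNA per cell and the share of cells that carry it cannot be told apart in these bulk libraries. The summed erythroid markers were highest in the same 3 lines, although GATA1, at 165, 206 and 191 CPM there against 201 and 217 CPM in control lines, was not, and their part in these changes was not tested.

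Late stage lines were compared with the controls in the same way. EPHB4 fell to 79.0 ± 1.60 CPM (SD, n = 2), with a log2 fold change of -0.30 (SE 0.097, FDR 0.0496), on the edge of the threshold: of 14 alternatives 1, DESeq2, also put it under 0.05 (FDR 0.0408), and the highest FDR was 0.165, without a filter on low counts. DDR1 was at 77.5 ± 15.1 CPM, with a log2 fold change of 0.42 (SE 0.16, FDR 0.0857), and neither of its 2 late stage lines overlapped the controls. ABL2 was at 100.4 ± 21.95 CPM, with a log2 fold change of 0.07 and a 95% interval from -0.29 to 0.43 (FDR 0.751). None of the 3 members tested passed an FDR of 0.005, against 7.98% of all genes, and EPHB4 alone passed 0.05, against 33.9%. The value of DDR1 was 0.62 (FDR 0.0326) without the 200 nM line and 0.20 (FDR 0.366) without the 50 nM line. For ABL2 the sign rested on single lines: the log2 fold change was -0.18 without the 50 nM line and -0.02 without the DMSO line.

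In the direct comparison of late with early stage lines EPHB4 was the 1 member past an FDR of 0.05. It fell by 0.60 on the log2 scale (SE 0.089, FDR 0.0167), from 120 to 79.0 CPM, where 14.3% of all tested genes had a larger change in either direction and 1.26% a smaller p-value. ABL2 and DDR1 had log2 fold changes of -0.32 (SE 0.14, FDR 0.162) and -0.33 (SE 0.15, FDR 0.175), with 95% intervals from -0.65 to 0.01 and from -0.68 to 0.02. No gene passed an FDR of 0.005 by edgeR (0% of 10452 genes, smallest FDR 0.0167). By unadjusted p, 3450 genes were under 0.05. At the FDR of 0.005 DESeq2 called 1135 genes and limma voom 0. An FDR of 0.05 was passed by 12.7% of all genes. DESeq2 gave EPHB4 an FDR of 1.75e-06, and without the 200 nM line the edgeR value was 0.0893. Without the 50 nM line ABL2 and DDR1 passed 0.05 as well, with log2 fold changes of -0.57 (FDR 0.0198) and -0.55 (FDR 0.0477), where EPHB4 was at -0.64. Without the 200 nM line they were at -0.10 (FDR 0.666) and -0.13 (FDR 0.678), where EPHB4 was at -0.57. Whether the members differ from one another in this change was not tested.

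With the groups taken from the labels alone, the 5 resistant lines against the 2 controls, DDR1 rose from 57.1 to 89.3 ± 15.7 CPM (SD, n = 5), a log2 fold change of 0.63 (SE 0.18, FDR 0.0354). ABL2 had a log2 fold change of 0.27 (SE 0.17, FDR 0.258) and EPHB4 one of 0.09 (SE 0.22, FDR 0.770), with early and late stage lines on either side of the controls. Of the 3 members tested, 0 passed an FDR of 0.005 (8.08% of all genes) and 1 passed 0.05 (32.4% of all genes). These 4 comparisons share libraries, so they are not independent of one another. Without the 200 nM line DDR1 had a log2 fold change of 0.72 (FDR 0.00470) and ABL2 one of 0.37 (FDR 0.0164). The rise of DDR1 lost the threshold of 0.05 without the drug naive (FDR 0.180), DMSO (0.174), 10 nM (0.0602), 25 nM (0.0739) or 50 nM line (0.0617).

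**Figure D3:**
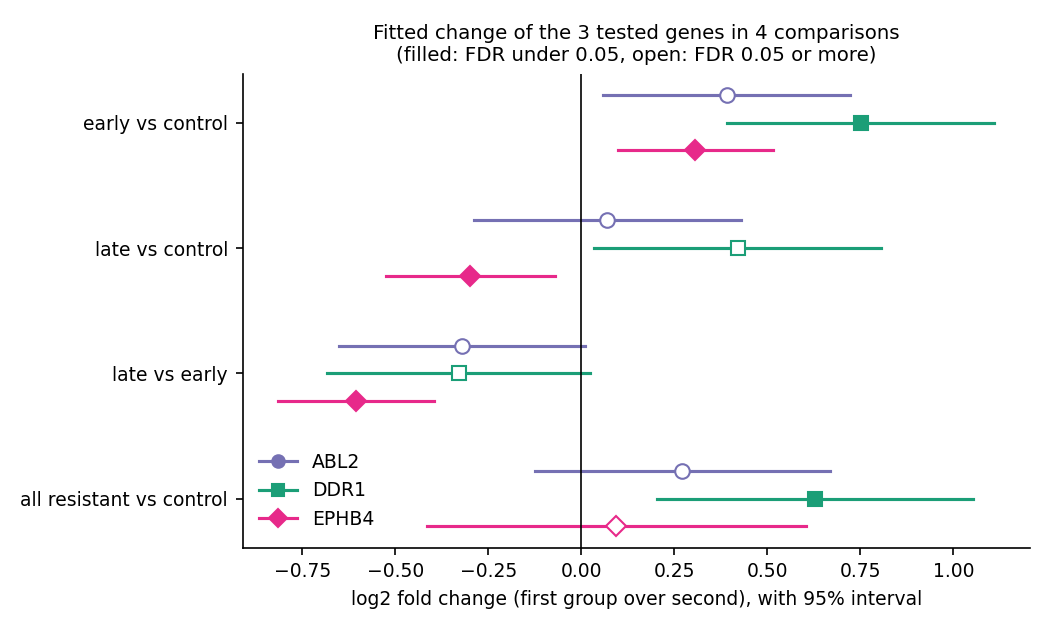
Fitted log2 fold change of ABL2, DDR1 and EPHB4 (x axis) in the 4 comparisons (rows), with 95% intervals from edgeR; filled symbols mark an FDR under 0.05. DDR1 is at 0.75 in early stage lines against controls, and EPHB4 changes side, from 0.31 in early to -0.30 in late stage lines against controls.

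Genes around the changed members were examined on GRCh37. DDR1 (chr6:30844198-30867933, plus strand) lies between IER3 and GTF2H4. FLOT1, a membrane scaffold gene on the far side of IER3, fell from 181 to 112 CPM in the early stage lines (log2 fold change -0.71, FDR 0.00116), and IER3 from 18.1 to 10.5 CPM (-0.80, FDR 0.0166). GTF2H4, on the other side, had a log2 fold change of -0.15 (FDR 0.318), so the rise of DDR1 had no counterpart in its nearest neighbours. Farther out, the early stage value of TUBB was 0.21 (FDR 0.136) and that of VARS2 -0.47 (FDR 0.0151), and SFTA2 was at 0 CPM in every group.
EPHB4 (chr7:100400187-100425145, minus strand) overlaps the start of SLC12A9 on the opposite strand over 704 bases, and whether the counting used the strand is not given in the sources used here. SLC12A9 was at 19.7, 21.2 and 21.1 CPM in control, early and late stage lines, and its log2 fold change between the stages was -0.01 (FDR 0.960). ABL2 (chr1:179068465-179198819, minus strand) overlaps the small nucleolar RNA gene SNORA67, which had at most 63 counts in a line. Of the 3 nearest protein-coding genes on each side of EPHB4, POP7 and SRRT rose in the early stage lines at an FDR of 0.05, with log2 fold changes of 0.55 and 0.41. Their values in the late stage lines were 0.42 and 0.50. TRIP6 was at -0.31 (FDR 0.140) in the early and 0.19 (FDR 0.408) in the late stage lines. EPO and ZAN, too low to be tested, were at or under 0.13 CPM in every group.

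Of the tested members, ABL2 and DDR1 had the most similar profiles across the lines. Over the 7 lines, Pearson's r of log2 CPM was 0.88 between ABL2 and DDR1, 0.65 between ABL2 and EPHB4 and 0.47 between DDR1 and EPHB4. These values are descriptions over 7 libraries that share group and dose. Among all tested genes, the profile closest to that of ABL2 was LONRF3 (r = 0.994), followed by SMG1 (0.993) and ANKRD20A2 (0.992). For DDR1 the closest were TMEM104 (0.992), CAMTA1 (0.988) and NCR3LG1 (0.986), and for EPHB4 KDELC2 (0.997), ZNF708 (0.996) and TTI1 (0.984).

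Of the members below the filter, KIT and DDR2 had the highest levels. KIT, the receptor for stem cell factor, gave 168 counts in drug naive cells (8.0 CPM) and 53 in DMSO cells (2.20 CPM). It had 223, 218 and 124 counts in the 10, 15 and 25 nM lines (8.02, 7.83 and 6.18 CPM) and 132 and 106 in the 50 and 200 nM lines (6.34 and 4.91 CPM). The DMSO line was thus the lowest of the 7 lines, and the drug naive line lay among the DasR lines, so the controls bracketed all but the 10 nM line. With the filter lowered to 1 CPM in 2 libraries, the log2 fold change of KIT in the early stage lines was 0.51 with a 95% interval from -0.62 to 1.64 (FDR 0.426).
DDR2, the second collagen receptor, was at 2.71 and 1.87 CPM in the drug naive and DMSO lines, at 2.91, 3.88 and 2.99 CPM in the early stage lines, and at 3.36 and 2.41 CPM in the late stage lines. Its early stage lines were just above both controls, by a log2 fold change of 0.50 and an interval from -0.20 to 1.19 (FDR 0.216). A change of the size found for DDR1 lies inside that interval.

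PDGFRB, a receptor for PDGF-B and PDGF-D, gave 26 counts in drug naive cells and 4 in DMSO cells, 5, 2 and 8 in the 10, 15 and 25 nM lines, and 29 and 23 in the 50 and 200 nM lines. Its late stage lines (1.39 and 1.07 CPM) were above all early stage lines (0.180, 0.0718 and 0.399 CPM), and the drug naive line (1.24 CPM) was as high as they were. PDGFRB reached 1 CPM in these 3 lines alone, so no test is given.
CSF1R, the receptor for macrophage colony-stimulating factor, had between 2 and 12 counts per line, and EPHA2 between 5 and 15. Both groups of resistant lines overlapped the controls for these genes. EPHB2 had 2 and 5 counts in the controls, 1 count in the 10 nM line and 0 in the other DasR lines. EPHB2 was at the floor of 3 counts or fewer in 6 of the 7 libraries, so no test is given for it. PDGFRA had 2 counts in the 15 nM line and 0 elsewhere, and a count of 0 allows a level of up to between 0.108 and 0.150 CPM at these depths. These limits cover counting error only.

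Of the low receptors, 4 lie in pairs on 2 chromosomes. PDGFRA (chr4:55095447-55164412) and KIT (chr4:55523434-55606949) are neighbours with KDR, another receptor kinase, with 0.0208 CPM in control and 0.0243 CPM in resistant lines. The nearest tested genes showed no common direction: TMEM165 rose in the early stage lines (log2 fold change 0.40, FDR 0.0126), LNX1 fell in them (-1.06, FDR 0.00687), and SRD5A3 fell in the late stage lines (-0.76, FDR 0.0167). LNX1 averaged 11.6 CPM in control, 5.61 CPM in early and 12.3 CPM in late stage lines. A fall of LNX1 in the early stage lines may thus have been favoured by the filter at 10 CPM. CSF1R (chr5:149432854-149492935) and PDGFRB (chr5:149493402-149535435) lie end to end on the minus strand, beside HMGXB3, which went from 102 to 138 CPM between control and late stage lines (log2 fold change 0.41, FDR 0.0205). Nearby CDX1 and SLC6A7 were at or under 0.0446 CPM in every group, and CAMK2A, too low to be tested, was at 0.244, 0.550 and 2.49 CPM in control, early and late stage lines.

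Ligands of these receptors were examined next. Of 22 listed ligands, 6 were high enough to be tested: PDGFA, PDGFB, CSF1, COL4A2, EFNA3 and EFNB1. All 6 were under 10 CPM in both controls and reached the filter through DasR lines, so a rise was favoured by that filter.
CSF1, the ligand of CSF1R, rose in the late stage lines, from a control level of 7.31 ± 1.04 CPM to 19.1 ± 1.75 CPM (SD, n = 2 each; log2 fold change 1.36, SE 0.19, FDR 0.00297), and its level in the early stage lines was 13.7 ± 1.39 CPM (FDR 0.00618). EFNB1, an ephrin ligand of EPHB receptors, rose from 3.41 ± 0.649 to 10.9 ± 2.10 CPM in the early stage lines (log2 fold change 1.67, SE 0.26, FDR 0.00256). EFNB1 reached 10 CPM in the 15 and 25 nM lines alone and CSF1 in the 5 DasR lines alone, so both entered this test through groups in which they were higher. With the filter at 1 CPM, which both genes passed in all 7 lines, the FDR was 0.00280 for CSF1 in the late and 0.00207 for EFNB1 in the early stage lines.
The ligands COL1A2, EFNB2, PDGFB and KITLG were picked with their values in view, so their levels are given without a test. PDGFB reached 10 CPM in the 50 and 200 nM lines alone, and COL1A2, EFNB2 and KITLG did not pass that filter. At 1 CPM, COL1A2 passed through the controls alone, EFNB2 through DasR lines alone and KITLG through the late stage lines alone. PDGFB reached 1 CPM in lines of every group. COL1A2, a chain of the collagen that DDR1 and DDR2 bind, was at 2.00 CPM in the drug naive and 14.3 CPM in the DMSO line and at or under 0.432 CPM in every DasR line. EFNB2, the main ligand of EPHB4, was at 0.476 and 0.582 CPM in the controls, at 3.88, 3.16 and 4.79 CPM in the early stage lines and at 5.57 and 1.90 CPM in the late stage lines. EFNB2 was thus higher in all 5 DasR lines than in both controls. COL1A2 was lower in them, but other collagen chains were not: COL1A1, its partner chain, was at 2.52 and 4.87 CPM in the controls, at 5.21, 9.52 and 8.28 CPM in the early stage lines and at 8.74 and 3.52 CPM in the late stage lines.
PDGFB, which binds PDGFRB, was at 2.76 and 0.790 CPM in the controls, at 1.44, 0.611 and 2.69 CPM in the early stage lines, and at 11.9 and 20.7 CPM in the late stage lines. KITLG, the ligand of KIT, had 3 and 1 counts in the controls, 0, 0 and 7 in the early stage lines, and 34 and 61 in the late stage lines. KITLG, PDGFB and CSF1 were thus higher in both late stage lines than in any other line. The tested ligand PDGFA was not, at 21.9 and 15.3 CPM in the 50 and 200 nM lines against 16.9 CPM at 25 nM. In the 50 and 200 nM lines KIT was at 6.34 and 4.91 CPM, PDGFRB at 1.39 and 1.07 CPM and CSF1R at 0.336 and 0.139 CPM. PDGFRB was itself higher there than in the early stage lines.

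**Figure D4:**
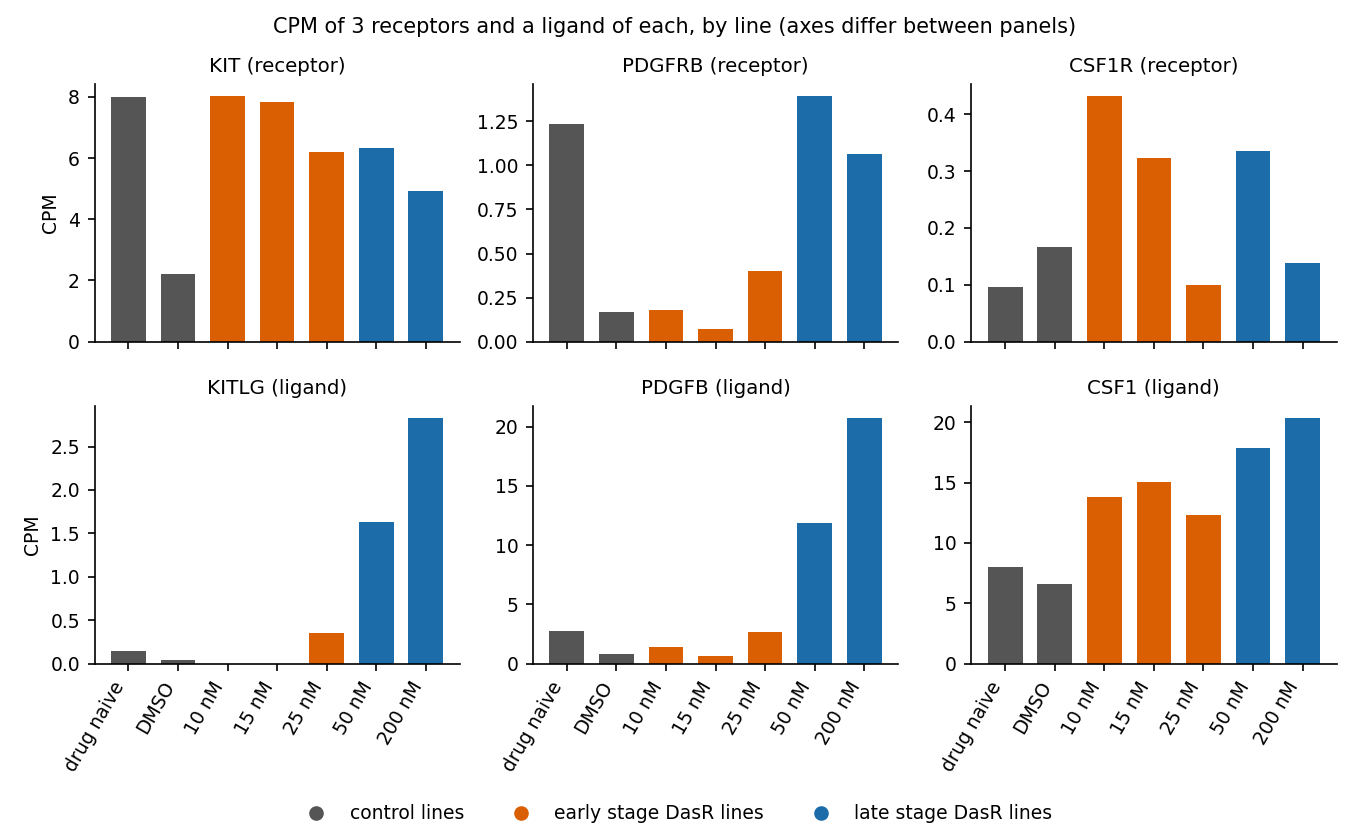
CPM of KIT, PDGFRB and CSF1R (top) and of a ligand of each, KITLG, PDGFB and CSF1 (bottom), as bars for the 7 lines coloured by group, with axes from 0 that differ between panels. The ligands are highest in the 50 and 200 nM lines, where PDGFB is at 11.9 and 20.7 CPM, while KIT is lowest in the DMSO line.

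Other receptor tyrosine kinases outside the group included larger changes than those of its members, in both directions. Of 48 listed, 17 were tested, and 4 rose and 0 fell in the early stage lines at an FDR of 0.005 (23.5%, beside 18% of all genes and 0 of the 3 members). FGFR1, a fibroblast growth factor receptor, rose in early stage lines from a control level of 0.993 ± 0.125 CPM (SD, n = 2) to 47.0 ± 8.42 CPM (SD, n = 3; log2 fold change 5.54, SE 1.004, FDR 0.00455), and was at 15.1 CPM in the 50 nM and 1.20 CPM in the 200 nM line. It reached 10 CPM in the early stage and 50 nM lines alone, and with the filter at 1 CPM, which the DMSO and 200 nM lines also passed, the FDR was 0.00478. PTK7, a pseudokinase receptor, rose from 15.8 to 48.0 CPM (1.59, FDR 0.00421).
FGFR3 rose in all 5 resistant lines, from 51.8 to 124 CPM (log2 fold change 1.24, FDR 0.00208). EPHB6, a kinase-dead relative of EPHB4, rose from 40.4 to 75.2 CPM in the early and to 139 CPM in the late stage lines (0.88 and 1.76, FDR 0.00433 and 0.000989). It was higher in late than in early stage lines (0.89, FDR 0.0190), where EPHB4 was lower. ERBB2 fell from 17.9 to 6.18 CPM in the late stage lines (-1.55, FDR 0.00260), and reached 10 CPM in the controls and the 15 nM line alone (FDR 0.00250 with the filter at 1 CPM).

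The ABL partners and substrates gave 3 of 17 tested genes that rose and 0 that fell in the early stage lines at an FDR of 0.005 (17.6%, near the 18% of all genes). ABL1 itself was at 349 and 319 CPM in the drug naive and DMSO lines, at 2557, 2021 and 1686 CPM in the 10, 15 and 25 nM lines, and at 1390 and 918 CPM in the 50 and 200 nM lines. Its reads include those of the BCR::ABL1 transcript. The log2 fold change of ABL1 in the early stage lines was 2.63 (SE 0.25, FDR 0.000479), where that of its paralog ABL2 was 0.39. WASF1, an actin regulator that binds ABL kinases, rose from 14.9 to 34.6 CPM (1.20, FDR 0.00395), and SORBS3, an adaptor of focal adhesions, from 12.9 to 27.9 CPM (1.10, FDR 0.00230). DOK2, an adaptor phosphorylated by ABL kinases, was highest in the late stage lines, at 36.3 CPM against 4.94 CPM in the controls (2.85, FDR 0.000893), and it reached 10 CPM in DasR lines alone. With the filter at 1 CPM, passed in all 7 lines, its FDR was 0.00110.

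Among 26 tested adaptors and regulators that act below the receptors, GAB2 had the largest decrease of those named. It is a docking protein for SHP2 and PI3K and fell from a mean of 352 CPM (SD 36.8, n = 2) to 73.7 CPM in the early (SD 3.17, n = 3) and 80.2 CPM in the late stage lines (SD 2.60, n = 2) (log2 fold changes of -2.27 and -2.16, FDR 7.76e-05 and 0.000219). SOS2, a RAS exchange factor, fell from 61.4 to 42.5 CPM in the early stage lines (-0.55, FDR 0.00254) and PIK3R2, a regulatory subunit of PI3K, rose from 50.0 to 118 CPM (1.22, FDR 0.000563). SH2B3, an inhibitory adaptor of KIT and cytokine receptors, fell from 191 to 92.8 CPM in the early stage lines (-1.06, FDR 0.00434) and was at 249 CPM in the late stage lines.
In all, 1 of the 26 rose and 3 fell in the early stage lines at this FDR (15.4%, beside 18% of all genes). Among 9 tested phosphatases and sheddases, PTPRF, a receptor phosphatase, rose from 11.9 to 224 CPM in the early stage lines (4.22, SE 0.45, FDR 0.000678), and was at 87.2 and 33.1 CPM at 50 and 200 nM. The membrane proteases MMP14 and ADAM17 fell in the early stage lines, MMP14 from 15.96 to 4.92 CPM (-1.71, FDR 0.00109; 10 CPM was reached in the controls alone, and the FDR was 0.000937 with the filter at 1 CPM) and ADAM17, which sheds CSF1R and KIT, from 99.04 to 59.1 CPM (-0.76, FDR 0.00253).
Across the 5 lists, edgeR called 15 of 75 tested genes at FDR 0.005 in the early stage lines (20%, beside 18% of all genes). It called 8 in the late stage lines (10.7%, beside 7.98%) and 4 over all resistant lines (5.33%, beside 8.08%). The early stage calls include EFNB1, FGFR1 and MMP14, and the late stage calls CSF1, DOK2, ERBB2 and MMP14. These reached 10 CPM only through lines in which they were higher, so the filter favoured their calls. With the filter at 1 CPM, the calls were 16 of 94 genes (17.0%) in the early and 8 of 94 (8.51%) in the late stage lines. They were 3 of 94 (3.19%) over all resistant lines. DESeq2 called 33, 20 and 23 of the 75 in the early stage, late stage and all resistant comparisons (44%, 26.7% and 30.7%). Of all 10452 genes it called 3548, 2503 and 2655. Between late and early stage lines edgeR called 0 at 0.005, as over all genes. DESeq2 called 20 of the 75 there (26.7%), beside 1135 of all 10452 genes. At 0.05 edgeR called 4 of 17 other receptor kinases (23.5%), 4 of 17 ABL partners (23.5%) and 7 of 26 adaptors (26.9%). It also called 1 of 9 phosphatases and sheddases (11.1%). The share of all genes was 12.7%. The 1 ligand past 0.05, PDGFB, reached 10 CPM in the 50 and 200 nM lines alone, so ligands are left out of these shares. Leaving out the drug naive line reduced the early stage count to 1 and leaving out the DMSO line to 2, and GAB2 was the only named gene that passed 0.005 in every fit with a line left out. All 27 calls of the 18 named genes stayed under an FDR of 0.05 in each such fit that could test them, the highest being 0.0462 for FGFR1 without the drug naive line.

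**Figure D5:**
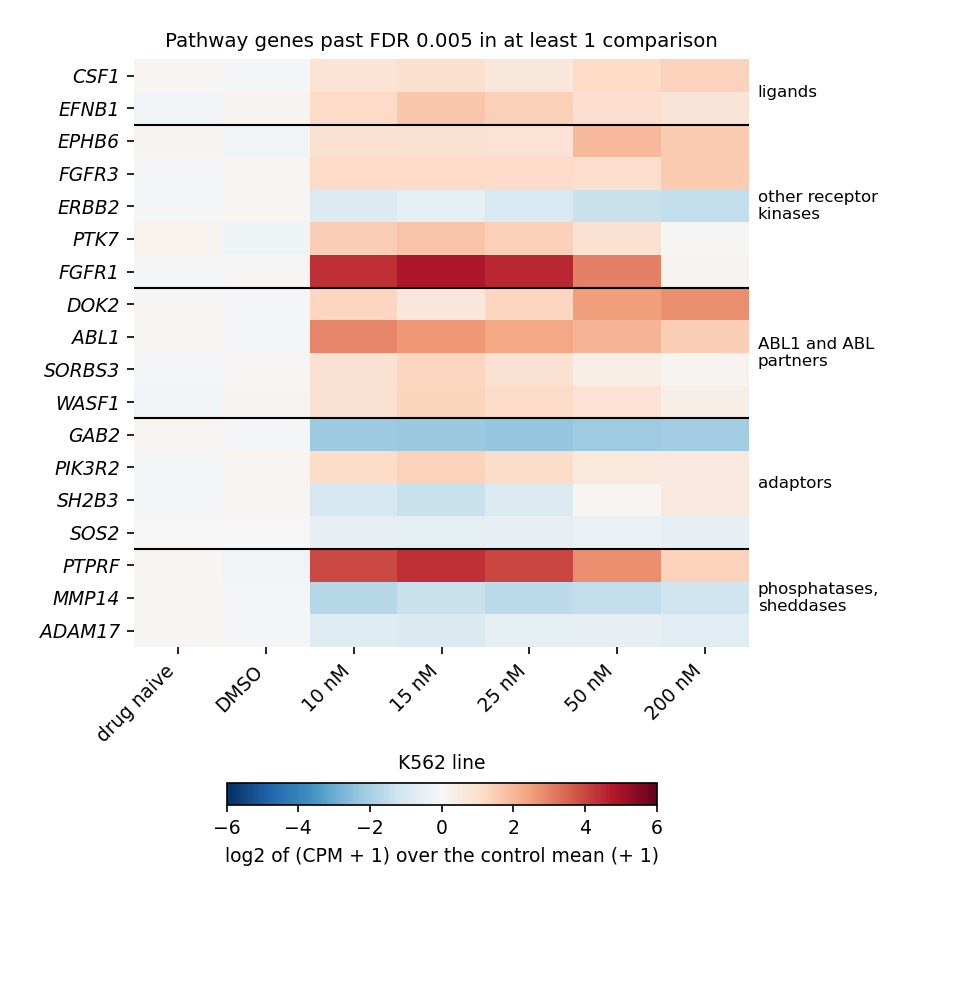
Colour shows the log2 of CPM (plus 1) over the mean of the 2 control lines (plus 1) for the 18 listed genes past an FDR of 0.005 in at least 1 comparison (rows, grouped by list) in the 7 lines (columns). FGFR1 and PTPRF are highest in the 10, 15 and 25 nM lines, GAB2 is low in all 5 DasR lines, and DOK2 is highest in the 50 and 200 nM lines.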

How the data were processed

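The authors sequenced RNA from 7 K562 lines with paired reads of 75 bases. Per the paper's methods and the submitters' processing notes, reads were aligned to hg19 with STAR and assigned to genes with featureCounts. The authors deposited raw counts per gene without normalization, and gene lengths in tables that otherwise hold the results of their own comparisons, which were not used. No per-sample column was left unused.

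Counts were joined to symbols from the deposited tables and RefSeq (23738 of 25702 IDs), and 22855 IDs were placed on GRCh37, the build of hg19. A gene was tested where 2 or more libraries reached 10 CPM (10452 genes). The quasi-likelihood test of edgeR 4.0.16 (R 4.3.3) was used after TMM scaling, on a fit of all 7 libraries by group with a shared spread, and p-values were adjusted by Benjamini-Hochberg. The common dispersion was 0.0260 (0.0576 where all resistant lines formed 1 group); at the former value lines within a group varied by 0.161 of their mean. The FDR threshold was 0.005, as in the study, with 0.05 beside it. Alternatives were DESeq2 1.42.0, limma 3.58.1 (voom), other scalings, filters and fits, and leaving out each line. CPM used raw totals. A gene with up to 3 counts in a library was taken as at the floor.

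The members and gene lists were chosen with earlier results of these data known. The genes named are all members, ABL1, and up to 6 genes per list past an FDR of 0.005 in any comparison. Genes among the 3 nearest protein-coding ones on each side of 6 members are named too. So are the 3 genes with the most similar profile for each tested member. Cell type markers and the ligands other than CSF1 and EFNB1 are named outside this rule. Kinase domains were compared from translated GENCODE coding sequences, as no protein table was used here, and RYK could not be aligned. One gene of the lists is not reported here and was left out of the counts over the lists.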

Additional observations from a re-analysis of the deposited data

Results flagged for a closer look

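Among the 5 resistant lines, 3 genes had 1 line that stood apart from the others by Dixon's test at the 95% level, out of 28 genes examined, and chance flags about 1 in 20 groups. PDGFRA was at 0.0718 CPM in the 15 nM line and at 0 in the other 4, and EPHB2 was at 0.0360 CPM in the 10 nM line and at 0 in the other 4, which are counts at or under the floor. FGFR3 was at 156 CPM in the 200 nM line, where the next highest line was at 121 CPM.

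Of 21 genes examined, 7 differed between late and early stage lines in their change against the controls, by edgeR's direct comparison at an FDR of 0.05, which 12.7% of all genes passed. Of the 21, 18 had been named because they passed an FDR of 0.005 in a comparison, so their share is not set against that of all genes. None of the 7 stayed under 0.05 without the 200 nM line, where the FDR was 0.0893 for EPHB4, 0.0855 for EPHB6, DOK2, SH2B3 and PTPRF, 0.135 for SORBS3 and 0.128 for PIK3R2, and PTPRF was under 0.05 in 2 of 7 fits with a line left out. EPHB4 was the 1 member among them, with a late minus early difference of -0.60 on the log2 scale (FDR 0.0167). The differences were 0.89 for EPHB6 (FDR 0.0190), 1.60 for DOK2 (FDR 0.0167) and 1.42 for SH2B3 (FDR 0.0167), all higher in the late stage lines. They were -0.85 for SORBS3 (FDR 0.0234), -0.62 for PIK3R2 (FDR 0.0234) and -1.90 for PTPRF (FDR 0.0266), all lower in the late stage lines.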

How the results depend on the processing

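Of 165 alternative log2 fold changes of ABL2, DDR1 and EPHB4, 155 kept their direction and their side of an FDR of 0.005, 8 passed it where the reported value had not, and 2 reversed, both for ABL2 between late stage lines and controls (-0.0174 without the DMSO line and -0.1822 without the 50 nM line, where the range over all lines left out reached 0.2876). In early stage lines against controls, where 0 members passed 0.005, 1 (DDR1) passed with DESeq2, without a filter and with the libraries of the compared groups alone, 2 passed a threshold of 0.05, and leaving out each line gave 0 to 1. In late stage lines against controls 1 passed at 0.05, and leaving out each line gave 0 to 0. Between late and early stage lines 1 (EPHB4) passed with DESeq2 and 1 at 0.05. Over all resistant lines 1 (DDR1) passed with DESeq2 and 1 at 0.05, and leaving out each line gave 0 to 1. The cause of these differences was not tested. Of all 10452 genes, DESeq2 called 3548 in the early stage lines, 1135 between the stages and 2655 over all resistant lines. The shares of all genes past 0.05 by edgeR were 46.5% in the early and 33.9% in the late stage lines. They were 12.7% between the stages and 32.4% over all resistant lines. Calls over all genes are not given for the other alternatives. With TMM-scaled totals the control mean of DDR1 was 57.6 CPM. With the authors' gene lengths, an alternative added after the data were seen, median RPKM was 9.16 for ABL2, 21.3 for DDR1 and 23.0 for EPHB4, in the same order, with ranges that overlapped between DDR1 and EPHB4 and no longer between ABL2 and DDR1. Other scalings shifted the median of all genes by at most 0.0183. No paired analysis was possible because the labels give no shared replicate numbers. Each line had 1 library, and the DasR lines were sampled in sequence. Dose, group, time in culture and the gatekeeper mutation of BCR::ABL1 therefore cannot be told apart. Members at a few counts could not be compared at this depth, and fits that left a group with 1 line assume that it varies like the others.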
